A study of Homo sapiens with 28 samples.

Results

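The genes described here switch ERK signalling off again or report that it is on: the ERK phosphatases DUSP4, DUSP5 and DUSP6, the Sprouty genes SPRY2 and SPRY4, the Sprouty-related genes SPRED1 and SPRED2, the AP-1 subunit FOSL1 (FRA1), and PHLDA1, a pleckstrin-homology protein induced by growth factors. These 9 genes were taken by name, with earlier results of these data known, out of 19775 genes that had a probe set with a single gene symbol. Active ERK, the last kinase of the RAS-RAF-MEK-ERK chain, switches on transcription of its own brakes. DUSP proteins remove phosphate from ERK, while Sprouty and Spred proteins act upstream, between growth factor receptors and RAF. ERK also stabilises FOSL1 protein, and RNA of these genes is used as a readout of pathway output. The arrays measured RNA and not ERK activity. In clear cell renal carcinoma receptor kinase inhibitors are standard drugs.

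The tumours were xenografts of 786-O and A498, established human clear cell renal carcinoma lines without working VHL, grown under the flank skin of female athymic nude/beige mice injected at 6 to 8 weeks of age. Sorafenib (80 mg/kg), which blocks RAF kinases as well as VEGF and PDGF receptors, or sunitinib (53.6 mg/kg), which blocks VEGF and PDGF receptors and KIT, was gavaged 6 days a week from a diameter of 12 mm. The 6 groups were 5 untreated and 5 resistant 786-O tumours of the sorafenib arm, 5 untreated and 4 resistant 786-O tumours of the sunitinib arm, and 4 untreated and 5 sorafenib-resistant A498 tumours. Resistant means so labelled: treated tumours taken up to the permitted 20 mm. The labels do not give the size of the untreated tumours, so drug exposure, resistance and size cannot be told apart. They also do not say that each tumour came from a mouse of its own. The p-values weigh a difference against the spread of tumours within groups, estimated over all 6 groups of both lines together.

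The values were deposited linear probe set signals of a 1-colour human array, with the same trimmed mean on each of the 28 arrays. All differences below are on the log2(signal + 16) scale, with the standard error (SE) of a limma model over the 28 arrays, and folds are on that scale too, which understates dim genes. Calls needed a p below 0.05 after Benjamini-Hochberg adjustment over the 13808 genes that passed a filter at signal 89.4, the median of all values, on at least 4 arrays. Of the 9 genes, 8 passed and DUSP4 did not. Arrays of a group correlated with r between 0.949 and 0.971. Renal carcinoma markers were present, with a summed signal between 95900 and 145000. Of 12 listed genes, CA9 and NDUFA4L2 had no probe set with a single gene symbol. The other 10, PAX8 among them, were all above the filter. Of the endothelial markers 3 of 10 passed, with CDH5, KDR and VWF below the filter. Of 12 listed macrophage markers CD68 had no such probe set, and 5 of the other 11 passed. The host's own cells are murine, and how far their RNA binds these human probes was not tested. In whole tumours fewer cells of a type and less RNA per cell cannot be told apart.

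Promoter sequences are shown for genes with an entry in the set of RefSeq starts used here. DUSP4, DUSP5 and FOSL1 had none in that set and were not searched. The genes shown behaved differently from each other in the results. Each is given as the 250 bases before an annotated start on the minus strand of GRCh38.p14. PHLDA1 (chr12:76031777-76032026), DUSP6 (chr12:89352502-89352751) and SPRY2 (chr13:80341127-80341376, the most upstream of 3 starts) rose with sorafenib in 786-O, and SPRY4 (chr5:142324248-142324497) did not pass the test there. Capitals mark the string CCGGAA on either strand, a form of the sequence bound by ETS factors, the family that includes nuclear ERK substrates. Other forms of the ETS sequence were not searched.
PHLDA1: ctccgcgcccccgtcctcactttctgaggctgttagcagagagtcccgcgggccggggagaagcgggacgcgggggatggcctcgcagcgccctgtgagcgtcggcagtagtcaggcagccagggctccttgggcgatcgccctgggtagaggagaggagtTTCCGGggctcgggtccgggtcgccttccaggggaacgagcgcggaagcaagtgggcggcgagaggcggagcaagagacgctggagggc
DUSP6: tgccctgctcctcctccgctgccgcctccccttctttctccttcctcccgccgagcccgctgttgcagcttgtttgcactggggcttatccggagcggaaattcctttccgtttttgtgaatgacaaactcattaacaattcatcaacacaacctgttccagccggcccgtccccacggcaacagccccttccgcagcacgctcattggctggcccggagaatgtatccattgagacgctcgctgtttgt
SPRY2: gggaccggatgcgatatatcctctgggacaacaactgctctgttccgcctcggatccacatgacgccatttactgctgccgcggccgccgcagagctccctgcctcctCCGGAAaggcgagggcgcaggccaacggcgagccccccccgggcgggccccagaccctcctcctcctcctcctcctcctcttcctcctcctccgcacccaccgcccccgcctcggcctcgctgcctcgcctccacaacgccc
SPRY4: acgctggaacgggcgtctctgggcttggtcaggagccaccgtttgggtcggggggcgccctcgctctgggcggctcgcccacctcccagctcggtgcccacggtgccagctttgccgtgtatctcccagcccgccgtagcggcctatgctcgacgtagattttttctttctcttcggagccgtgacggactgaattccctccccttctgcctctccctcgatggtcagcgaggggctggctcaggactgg
The string CCGGAA lay at -89 before the PHLDA1 start, as its reverse complement, and at -142 before the most upstream SPRY2 start. The other windows searched did not hold it. They include those of DUSP6, SPRED1 and SPRED2, which also rose with sorafenib in 786-O, and the other SPRY2 starts. CCGGAA occurred in 14.5% of 35116 windows of the same length, and a link between the string and the rises was not tested. No window of the 6 genes with an entry (9 starts in all, SPRED1 and SPRED2 included) held TGANTCA (AP-1) or TGACGTCA (CRE). Nor did any hold the CArG box searched as CC, 6 A or T bases, GG. These letters occurred in 6.57%, 1.65% and 1.16% of windows. The searches covered both strands. Neither the AP-1 nor the CRE string contains the other, and a match is a string of letters and not a binding site shown to be used.

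With sorafenib in 786-O, 7 of the 8 tested genes rose in resistant tumours: DUSP5, FOSL1 and PHLDA1 nearly 4-fold, DUSP6 2.52-fold, and SPRED2, SPRY2 and SPRED1 between 1.64-fold and 1.77-fold. In each of the 7 every resistant tumour was above every untreated tumour. Of all genes tested, 5.97% rose, 15.2% changed in either direction, and 12.5% had no overlap between the groups. The median difference was 1.08 over the 8 genes and -0.05 over all genes tested. Since the genes were chosen with earlier results of these data known, these shares describe them and are not independent support. With sunitinib in 786-O, FOSL1 and SPRY4 rose and SPRY2 fell, where 2.22% of all genes rose, 2.84% fell and 8.46% did not overlap (SPRY4 among them). With sorafenib in A498, FOSL1, PHLDA1 and DUSP6 rose, where 2.93% of all genes rose, and FOSL1 and DUSP6 had no overlap, as 9.14% of genes did. The exact two-sided permutation p of a gene without overlap was 0.00794, the smallest the groups allow. Centring each array on its median moves the split of called genes from 825 higher and 1267 lower to 1274 and 732 for 786-O with sorafenib, from 306 and 392 to 425 and 260 for sunitinib, and from 405 and 470 to 216 and 617 for A498; none of the 8 genes changed direction in an arm, but of the A498 calls FOSL1 alone was left. In the sorafenib arm of 786-O 6 of 10 tested marker genes of fibroblasts and pericytes fell, where 9.18% of all genes fell, and their part in the rise of the 7 genes was not tested.

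**Figure D1:**
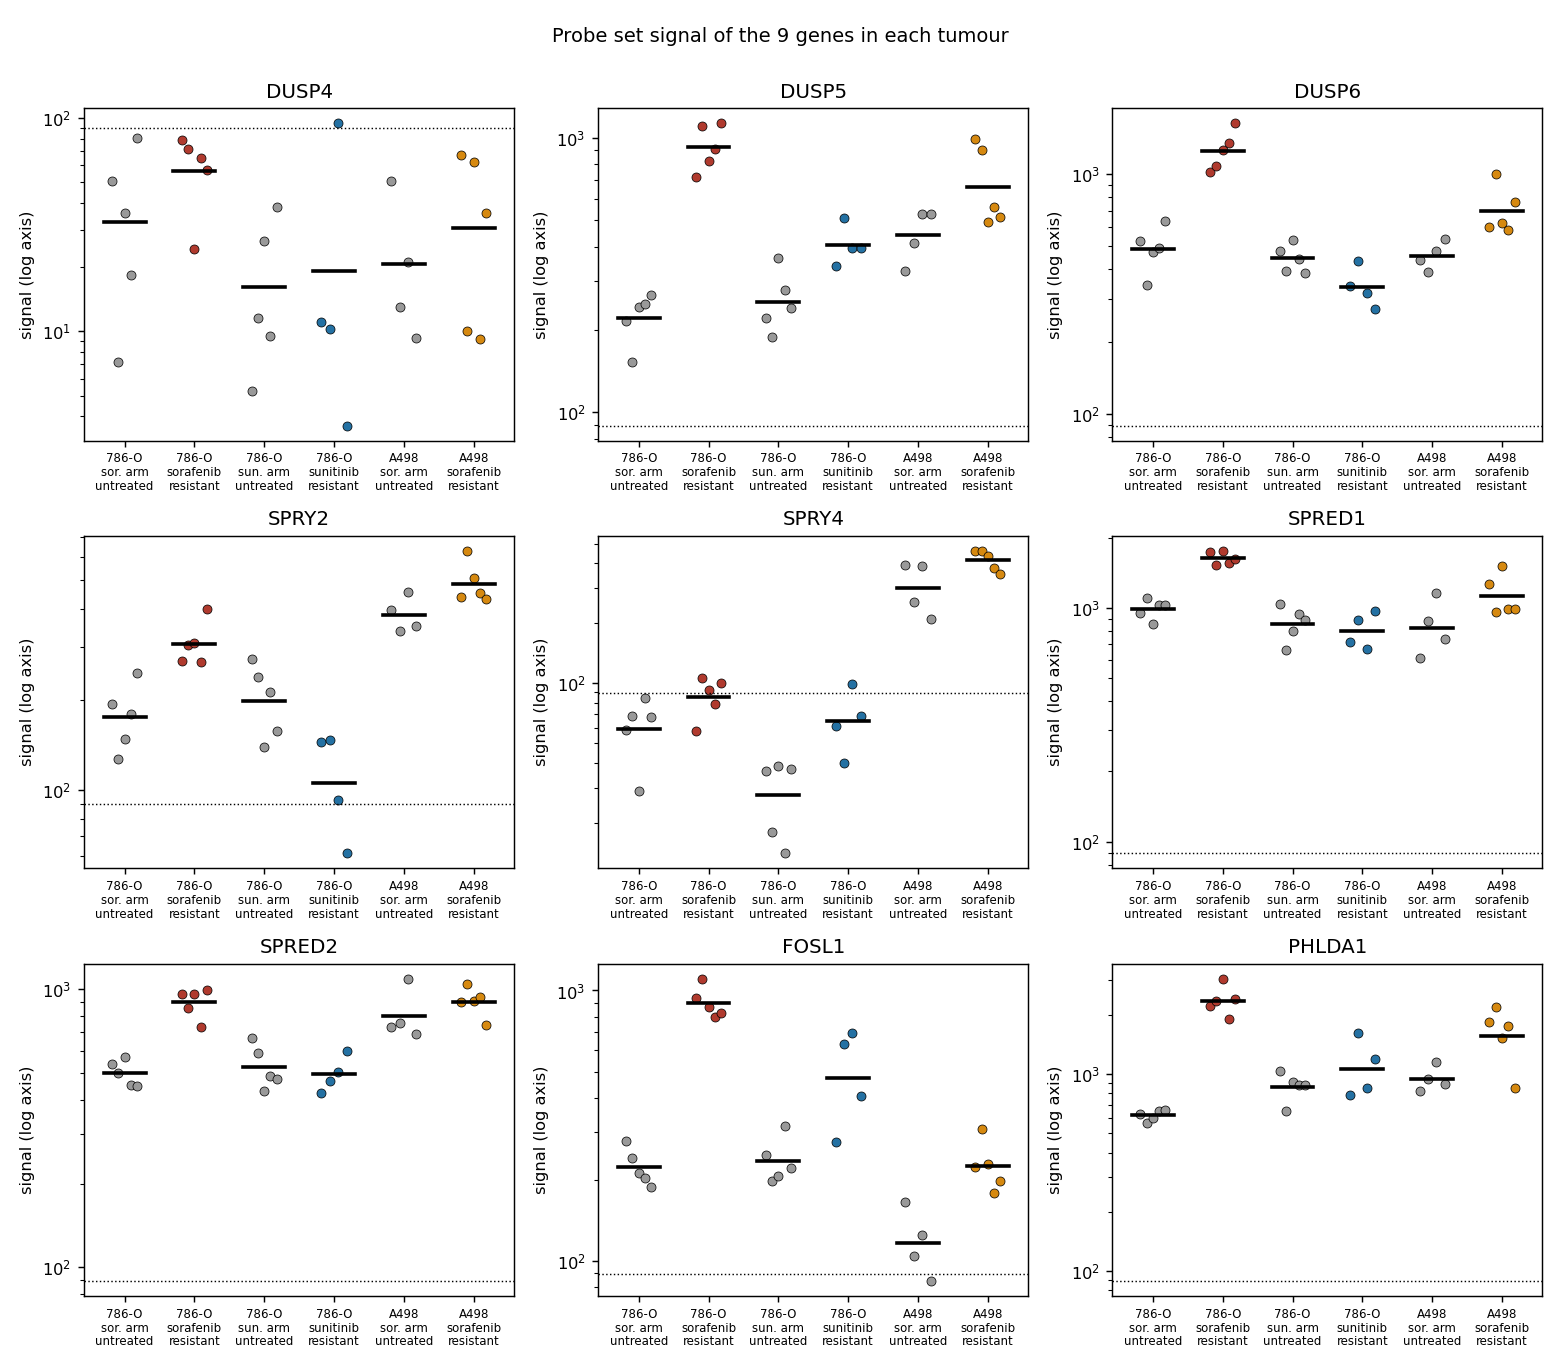
Deposited signal (log axis) of the brightest probe set of each gene in the 28 tumours; points are tumours, grey for untreated and coloured for resistant, bars the mean taken on the log2(signal + 16) scale, and the dotted line signal 89.4. The 5 sorafenib-resistant 786-O tumours lie above their untreated tumours for 7 genes, and DUSP4 lies near or below the dotted line throughout.

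**Figure D2:**
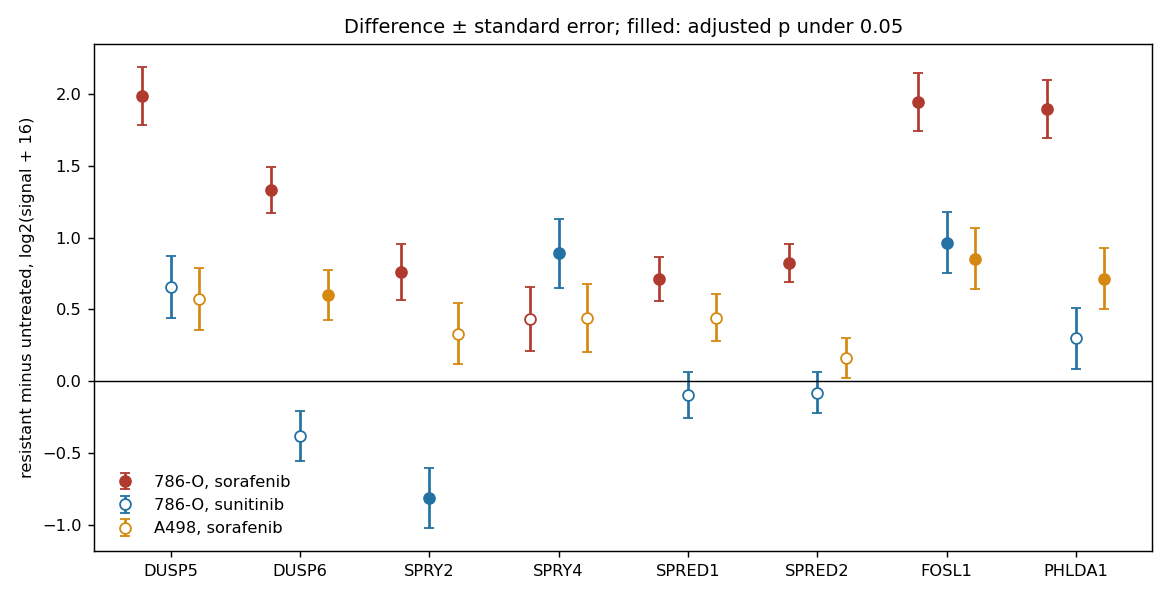
Resistant minus untreated difference on the log2(signal + 16) scale, with its SE, for the 8 tested genes in the 3 arms; filled points have an adjusted p under 0.05. DUSP5, FOSL1 and PHLDA1 reach 1.90 to 1.99 in 786-O with sorafenib, and SPRY2 is at -0.81 with sunitinib.

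DUSP5, which acts on ERK in the nucleus, had the largest sorafenib difference in 786-O among the brightest probe sets of the 8 tested genes. Its signal (probe set 209457_at) was 152, 215, 241.5, 248 and 266 in the untreated 786-O tumours of the sorafenib arm and 717, 823, 909, 1104 and 1128 in the resistant ones. The lowest resistant tumour was well above the highest untreated one, and the difference was 1.99 ± 0.20 (SE), or 3.97-fold, adjusted p = 3.75e-07. In the sunitinib arm the untreated tumours read 188, 220.3, 239.9, 278 and 363.5 and the resistant ones 342, 395, 397 and 508. These overlap by a single untreated tumour, and the difference of 0.66 ± 0.22 missed the threshold at an adjusted p of 0.0799 (0.0435 at a difference of 0.78 without untreated replicate 3). In A498, DUSP5 already read 326, 413, 528 and 529 without treatment, and 494, 515, 560, 904 and 986 in resistant tumours. Of the resistant A498 tumours 2 lay within the untreated range, 1 just above it and 2 far above, and the difference was 0.57 ± 0.22, adjusted p = 0.12.

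DUSP6 (208891_at), the cytoplasmic ERK phosphatase also called MKP-3, separated the drugs most clearly. In the sorafenib arm its signal was 344.5, 472, 493.5, 527 and 639.7 untreated and 1023, 1083, 1259, 1343 and 1624 in resistant tumours, a difference of 1.33 ± 0.16, adjusted p = 3.48e-06. In the sunitinib arm it was 388, 396, 443, 479.6 and 529 untreated and 274.5, 318, 340 and 435 in resistant tumours. There 3 of 4 resistant tumours lay below all untreated ones, but the difference of -0.38 ± 0.17 did not pass the test (adjusted p = 0.227). In A498 the untreated tumours read 389, 439.9, 476.5 and 535 and the resistant ones 585, 602.5, 622.5, 767 and 1004. All resistant A498 tumours were above all untreated ones, by 0.60 ± 0.17, adjusted p = 0.0377.

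The other DUSP6 probe sets were dimmer and gave larger differences. On 208892_s_at the resistant 786-O tumours of the sorafenib arm ranged from 575.5 to 945 against 124 to 235 untreated, a difference of 2.05 ± 0.20. On 208893_s_at they ranged from 126 to 283 against 5.6 to 29.9, a difference of 3.06 ± 0.33; its untreated values lie far below signal 89.4, so the size is uncertain. The same probe sets rose in A498 by 1.10 ± 0.21 and 1.86 ± 0.35 and gave -0.13 ± 0.21 and 0.09 ± 0.35 with sunitinib. The adjusted p over 26924 probe sets was at most 0.00329 for the rises and at least 0.801 for sunitinib.

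DUSP4, a nuclear phosphatase of ERK and of other MAP kinases, was close to the lower end of the array. On its brightest probe set (204015_s_at) the untreated tumours of the sorafenib arm read 7.2, 18.4, 35.8, 50.6 and 80.9 and the resistant ones 24.4, 57.2, 65.3, 71.6 and 78.9. All 3 probe sets together ranged from 1.6 to 94.4 over the 28 tumours, with medians of 10.8 to 25.5. The probe sets stayed under the filter, so no test of DUSP4 is reported. They also disagreed. With sorafenib in 786-O the median was 6.6 untreated and 45.0 resistant on 204014_at, but 48.5 and 22.4 on 226034_at.

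Among the Sprouty genes SPRY2 (204011_at), which inhibits signalling from receptors to RAF, moved in opposite directions with the drugs in 786-O. Its signal was 127, 148, 179, 194 and 246 untreated and 267, 269.8, 305, 309 and 402 in sorafenib-resistant tumours, a rise of 0.76 ± 0.20, adjusted p = 0.01. In the sunitinib arm it was 138.5, 157, 212, 238 and 273 untreated and 61.4, 92.8, 145 and 146 in resistant tumours. It fell there by 0.81 ± 0.21 on the log2 scale (adjusted p = 0.0239), with 2 resistant tumours below all untreated ones and 2 within their range. In A498 the untreated tumours read 339, 352, 397 and 457 and the resistant ones 433, 440.3, 453, 508 and 626. Of the resistant A498 tumours 3 lay within the untreated range and 2 above it, and the difference of 0.33 ± 0.21 was not called (adjusted p = 0.387).

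SPRY4 (221489_s_at), the other Sprouty gene, differed more between the lines than with any drug. It read 14.1, 18.1, 36.25, 37.1 and 38.7 in untreated 786-O tumours of the sunitinib arm and 40.01, 61.3, 68.7 and 99.2 in resistant ones, a rise of 0.89 ± 0.24 without overlap (adjusted p = 0.0286). In the sorafenib arm it was 28.8, 58.5, 67.4, 68.8 and 84.15 untreated and 57.4, 78.25, 92.7, 99.8 and 106 in resistant tumours, with overlap and a difference of 0.43 ± 0.22 (adjusted p = 0.209). Most 786-O values were under signal 89.4, so the sizes are uncertain. The call also depended on which untreated tumours served as the control. The untreated tumours of the sorafenib arm were higher than those of the sunitinib arm by 0.79 ± 0.22 (adjusted p = 0.128). Against the untreated tumours of both arms pooled, SPRY4 rose with sorafenib (0.82, adjusted p = 0.0136) and was not called with sunitinib (0.50, adjusted p = 0.232). Over 10 alternatives, this pooled control and other settings of the processing, the adjusted p ranged from 0.0136 to 0.274 with sorafenib. With sunitinib the range was 0.0205 to 0.232. In A498 it read 209.8, 255, 386 and 389 untreated and 353, 378, 432.5, 457 and 458 in resistant tumours (0.44 ± 0.24, adjusted p = 0.295).

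Both Spred genes, whose proteins bring the RAS inhibitor neurofibromin to the membrane, rose with sorafenib in 786-O and not with sunitinib. SPRED1 (226837_at) read 859, 957, 1028, 1033 and 1107 untreated and 1534, 1560, 1624, 1741 and 1751 in sorafenib-resistant tumours, the narrowest spread of the 9 genes in that group, and a rise of 0.71 ± 0.15 (adjusted p = 0.00193). With sunitinib it read 659, 800.4, 886, 944.5 and 1040 untreated and 668, 717, 885 and 969 in resistant tumours, fully overlapping at -0.09 ± 0.16 (adjusted p = 0.816). In A498 it read 610.4, 738, 880.4 and 1157 untreated and 959.7, 988, 989, 1269 and 1517 in resistant tumours. The difference of 0.44 ± 0.16 had an adjusted p of 0.103, and 0.0234 at 0.60 without untreated replicate 3, the highest untreated tumour.

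SPRED2 (212458_at) read 446, 450, 499, 538 and 567 untreated and 731, 856, 957, 961 and 991 in sorafenib-resistant 786-O tumours, a rise of 0.82 ± 0.13 (adjusted p = 0.000103). The sunitinib arm read 429, 476, 487, 588 and 664 untreated and 424, 467, 501 and 597 in resistant tumours, with almost the same range in both groups (-0.08 ± 0.14, adjusted p = 0.82). In A498 the gene was already high, at 689, 731.5, 754 and 1086 untreated and 744, 896.5, 902, 936 and 1043 in resistant tumours (0.16 ± 0.14, adjusted p = 0.553). With probe sets averaged per gene in 786-O with sorafenib, SPRED1 gave 0.46 (adjusted p = 0.0589) and SPRED2 0.22 (adjusted p = 0.417); over 12 alternatives the adjusted p ranged from 8e-05 to 0.0589 and from 1.42e-05 to 0.417. The other SPRED2 probe sets had median signals of 46.0 and 4.9. Of the other SPRED1 probe sets 244439_at rose by 0.77 ± 0.22 and 235074_at gave -0.10 ± 0.27.

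FOSL1 (204420_at), a FOS-family partner of JUN proteins in the AP-1 transcription factor, was called higher in all 3 arms. In the sorafenib arm of 786-O its signal was 187, 203, 211, 241 and 277 untreated and 800.6, 823, 868, 941 and 1104 in resistant tumours, a rise of 1.95 ± 0.20, or 3.85-fold, adjusted p = 3.75e-07. In the sunitinib arm it was 198, 206, 221, 247 and 316 untreated and 276, 406, 635 and 695 in resistant tumours. The resistant tumours spread widely there, with a single one inside the untreated range, and the rise was 0.97 ± 0.21 (adjusted p = 0.00866). In A498 it was 84.4, 104.5, 125 and 165 untreated and 179, 198, 223, 229 and 308.5 in resistant tumours, a rise of 0.85 ± 0.21 without overlap (adjusted p = 0.0159). The resistant A498 tumours thus had the signal that untreated 786-O tumours had.

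PHLDA1 (217996_at) read 566.5, 598, 626, 653 and 658 in untreated and 1908, 2213, 2345, 2411 and 3038 in sorafenib-resistant 786-O tumours, a rise of 1.90 ± 0.20, or 3.73-fold, adjusted p = 5.5e-07. With sunitinib it read 649, 878, 879, 908 and 1034 untreated and 784, 845, 1186 and 1616 in resistant tumours, where 2 were above all untreated ones and 2 were not (0.30 ± 0.21, adjusted p = 0.488). In A498 it read 817, 889.6, 947 and 1145 untreated and 845, 1528, 1748, 1842 and 2195 in resistant tumours. A single resistant A498 tumour stayed at the untreated level, and the rise was 0.71 ± 0.21 (adjusted p = 0.044 over genes and 0.0558 over probe sets). Probe set 225842_at, of similar brightness, rose by 2.27 ± 0.18 with sorafenib in 786-O and by 1.33 ± 0.19 in A498, without overlap there (770.1 to 1148 untreated, 1832 to 3433 resistant). Of the 6 PHLDA1 probe sets 5 rose in 786-O with sorafenib, and 217998_at had 0.75 ± 0.26 (adjusted p = 0.0587 over probe sets).

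Of 22 probe sets of the 9 genes, 17 passed the filter. In 786-O with sorafenib 14 of the 17 rose and 16 had a difference above 0, where 5.24% of all 26924 tested probe sets rose and 46.2% had a difference above 0. In A498 6 rose and all 17 had a difference above 0, against 2.13% and 54.0%. With sunitinib 2 rose, 1 fell and 9 had a difference above 0, against 1.33%, 2.06% and 46.8%.

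**Figure D3:**
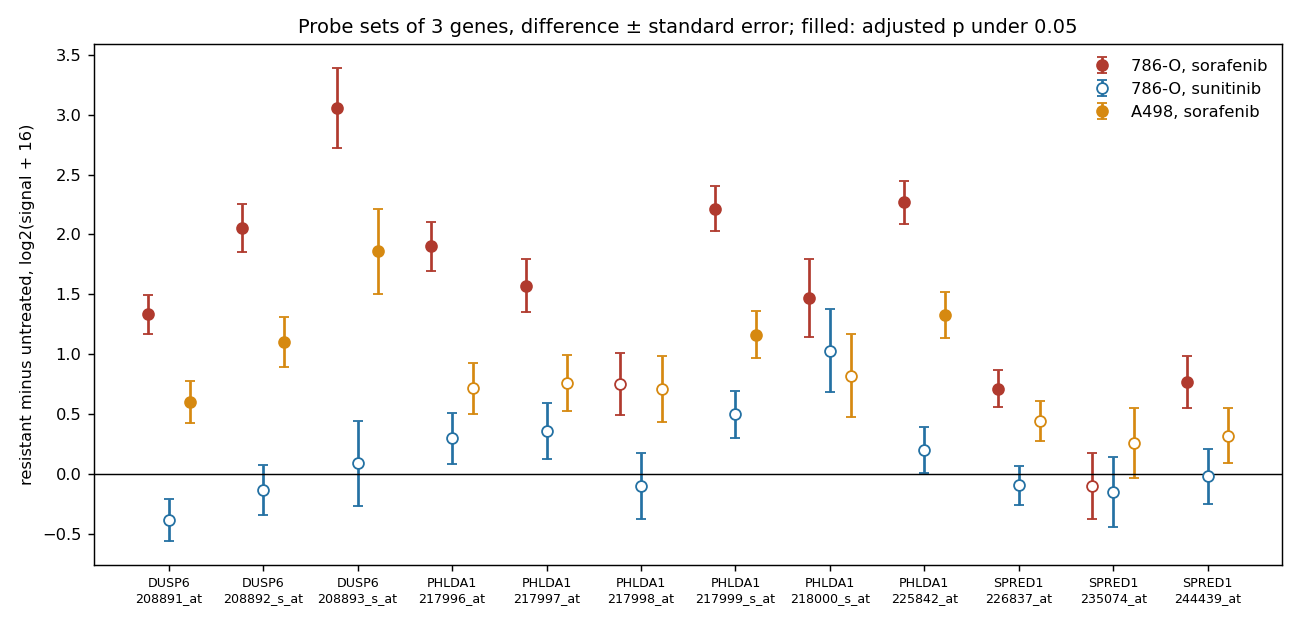
Resistant minus untreated difference on the log2(signal + 16) scale with SE for the probe sets of DUSP6, PHLDA1 and SPRED1 in the 3 arms; filled points have an adjusted p under 0.05 over all probe sets tested. The 3 DUSP6 probe sets range from 1.33 to 3.06 with sorafenib in 786-O and from -0.38 to 0.09 with sunitinib, and SPRED1 probe set 235074_at lies at -0.10 with sorafenib.

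The 7 sorafenib calls in 786-O held when each of the 10 tumours of the arm was left out in turn. The calls in the other arms did not. With sunitinib FOSL1 was lost without resistant replicate 3 (0.79, adjusted p = 0.053; 0.00106 to 0.053 over the 9 tumours). SPRY4 was lost without untreated replicate 2 or 4 or resistant replicate 3 or 4 (0.719 to 0.867, adjusted p 0.0745 to 0.138), and SPRY2 without untreated replicate 1 or 2 or resistant replicate 3 or 4 (-0.759 to -0.595, adjusted p 0.0605 to 0.113). In A498 FOSL1 was lost without untreated replicate 4 (0.72, adjusted p = 0.0703). DUSP6 was lost without untreated replicate 1, 2 or 3 or resistant replicate 2 or 5 (0.473 to 0.619, adjusted p 0.0522 to 0.116), and PHLDA1 without untreated replicate 1, 2 or 4 or resistant replicate 1, 2, 3 or 4 (0.592 to 0.722, adjusted p 0.0791 to 0.134). Fitted on the arrays of the arm alone, 0 of the 8 genes were called in the sunitinib arm and 0 in A498 by limma, with the lowest adjusted p at 0.0941 and 0.0632 and with 5 and 6 of them at an unadjusted p under 0.05 in that fit.

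The effect of sorafenib exceeded that of sunitinib in 786-O for 5 of the 8 genes by the test of the difference itself, where 0.949% of all genes differed and 0.442% were higher with sorafenib (61 higher and 70 lower, or 64 and 39 with median centring). DUSP6 led with a difference between effects of 1.72 ± 0.24 (adjusted p = 0.000403). PHLDA1 differed by 1.60 ± 0.29 and SPRY2 by 1.58 ± 0.29, each with an adjusted p of 0.00683. Over probe sets, PHLDA1 was also called on 217999_s_at (1.72) and 225842_at (2.07). It was not called on 217997_at (1.21, adjusted p = 0.0735), 217998_at (0.85, adjusted p = 0.31) and 218000_s_at (0.44, adjusted p = 0.728). DUSP5 differed by 1.33 ± 0.30 (adjusted p = 0.0299) and SPRED2 by 0.90 ± 0.19 (adjusted p = 0.0225). FOSL1, called in both arms, had a difference of 0.98 with a 95% interval from 0.38 to 1.58 (adjusted p = 0.101), and SPRED1 one of 0.81 (0.35 to 1.26, adjusted p = 0.0795). SPRY4 had -0.46 (-1.13 to 0.22, adjusted p = 0.551). DUSP5 lost its call without sorafenib-arm untreated replicate 2 or resistant replicate 5, or sunitinib-arm untreated replicate 3 or resistant replicate 1, 3 or 4 (adjusted p 0.0505 to 0.0719). SPRED2 lost its call without sunitinib-resistant replicate 1 (0.83, adjusted p = 0.0607), and SPRED1 gained one without sunitinib-arm untreated replicate 2 (0.90, adjusted p = 0.0466). Over 12 other alternatives of processing and controls, DUSP5 and SPRED2 were each called in 11, with adjusted p up to 0.0558 and 0.508. SPRED1 was called in 4 of these 12 and FOSL1 in 1. DUSP6 and PHLDA1 were called in all 12, and SPRY2 in all of its 11. The arms also differ in the number that starts the sample titles (33 for the sorafenib arm of 786-O, 35 for the sunitinib arm and for A498), whose meaning the labels do not state, so that it and the drug cannot be told apart. Nor can that number and the line be told apart where the sorafenib effects in A498 and 786-O are compared.

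The effect of sorafenib was smaller in A498 than in 786-O for 4 of the 8 genes, where 5.19% of all genes differed and 2.17% were lower in A498 (417 higher and 299 lower, or 208 and 581 with median centring). The difference, A498 minus 786-O, was -1.42 ± 0.30 for DUSP5 (adjusted p = 0.00681), -1.19 ± 0.29 for PHLDA1 (adjusted p = 0.0184), -1.09 ± 0.29 for FOSL1 (adjusted p = 0.0275) and -0.66 ± 0.19 for SPRED2 (adjusted p = 0.0447). Over probe sets, PHLDA1 was also called on 217999_s_at (-1.05) and 225842_at (-0.94). It was not called on 217997_at (-0.81, adjusted p = 0.18), 217998_at (-0.04, adjusted p = 0.974) and 218000_s_at (-0.65, adjusted p = 0.515). DUSP6 had -0.73 with a 95% interval from -1.23 to -0.24 (adjusted p = 0.0723), SPRY2 -0.43 (-1.02 to 0.17), SPRED1 -0.27 (-0.73 to 0.19) and SPRY4 0.01 (-0.66 to 0.68). FOSL1 lost its call without 786-O untreated replicate 4 or 5, A498 untreated replicate 1 or A498-resistant replicate 4 (adjusted p 0.0501 to 0.0725). DUSP6 gained one without 786-O untreated replicate 5 (-0.83, adjusted p = 0.0459) or A498-resistant replicate 2 (-0.86, adjusted p = 0.028). SPRED2 kept its call in 5 of 19 such fits, without 786-O untreated replicate 1 or 3 or resistant replicate 4, or A498 untreated replicate 4 or resistant replicate 2, and in 8 of 12 other alternatives. The 14 other tumours each ended it when left out (adjusted p 0.0535 to 0.097).

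**Figure D4:**
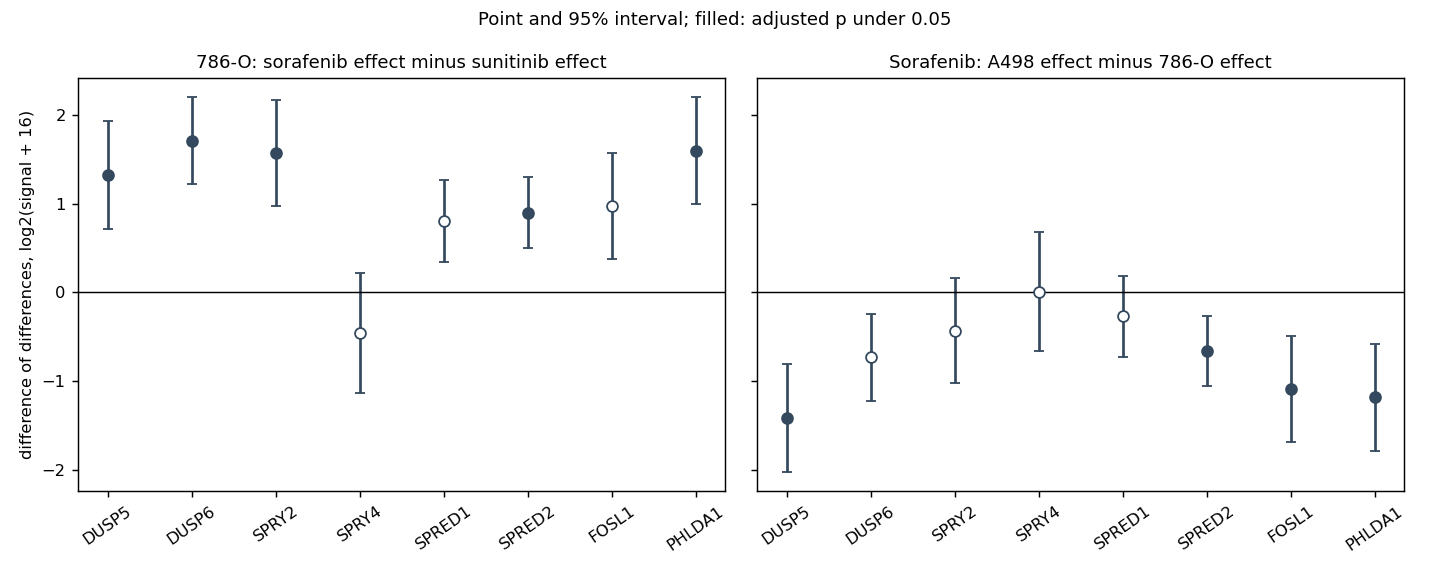
Differences between effects on the log2(signal + 16) scale with 95% intervals for the 8 tested genes; the left panel is the sorafenib minus the sunitinib effect in 786-O, the right panel the sorafenib effect in A498 minus that in 786-O, and filled points have an adjusted p under 0.05. DUSP6, PHLDA1, SPRY2, DUSP5 and SPRED2 are filled on the left, and DUSP5, PHLDA1, FOSL1 and SPRED2 on the right.

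Without drug the lines already differed in these genes. In untreated A498 against untreated 786-O tumours of the sunitinib arm, SPRY4 was higher by 2.86 ± 0.24 (7.27-fold, adjusted p = 1.67e-10), SPRY2 higher by 0.90 ± 0.21 (adjusted p = 0.000642), DUSP5 by 0.77 ± 0.22 (adjusted p = 0.00346) and SPRED2 by 0.60 ± 0.14 (adjusted p = 0.000651). The size for SPRY4 is uncertain, since its signal in untreated 786-O tumours lay under 89.4, and it was 2.08 ± 0.24 (4.22-fold) against the untreated tumours of the sorafenib arm. FOSL1 was lower in A498, at -0.92 ± 0.21 (adjusted p = 0.000593). These 5 of 8 calls stand beside 58.0% of all genes called between the lines, so the share is near the background; SPRY4, SPRY2, SPRED2 and FOSL1 had no overlap, as 47.4% of genes had. Against the untreated tumours of the sorafenib arm 6 of 8 were called (61.6% of all genes), the same 5 and PHLDA1 (0.59 ± 0.21, adjusted p = 0.0187). The untreated 786-O tumours of the arms differed in 0 of the 8 genes by limma, with 2 at an unadjusted p under 0.05 (SPRY4 and PHLDA1), and in 0.275% of all genes.

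The order of the group levels differed between the genes. DUSP5, DUSP6, SPRED1, FOSL1 and PHLDA1 were highest in sorafenib-resistant 786-O tumours, with mean signals of 936 ± 178, 1266 ± 238, 1642 ± 101, 907 ± 123 and 2383 ± 414 (SD, n = 5). The group next to it had an overlapping SD range for DUSP5 (resistant A498, 692 ± 234) and PHLDA1 (resistant A498, 1632 ± 501), and not for DUSP6 (resistant A498, 716 ± 176), SPRED1 (resistant A498, 1145 ± 243) and FOSL1. SPRY2 and SPRY4 were highest in resistant A498 tumours, at 492 ± 80.4 and 416 ± 47.5 (SD, n = 5), with untreated A498 next at 386.5 ± 53.4 and 310.1 ± 91.4 (SD, n = 4), and the SD ranges of these neighbours overlapped. For SPRED2 the resistant A498 tumours (904 ± 108), the sorafenib-resistant 786-O tumours (899.5 ± 107) and the untreated A498 tumours (815 ± 183) did not differ beyond their spread. For FOSL1 the 3 middle groups, both untreated 786-O groups and resistant A498, lay between 224 ± 35.6 and 237.5 ± 47.6, untreated A498 was lowest at 119.8 ± 34.6 and sunitinib-resistant 786-O stood at 503 ± 196.1 (SD, n = 4). DUSP6, SPRY2, SPRED1 and SPRED2 were lowest in sunitinib-resistant 786-O tumours, at 341.9 ± 68.0, 111 ± 41.5, 809.8 ± 141 and 497 ± 73.5 (SD, n = 4), each within the SD range of its nearest neighbour or overlapping it. For DUSP6 the 3 untreated groups, between 447 ± 59.0 and 495 ± 106, did not differ beyond their spread.

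Within groups these genes went up and down together only in part. Over the 28 pairs of the 8 genes, deviations from the group means across the 28 tumours correlated with a median Pearson r of 0.118, from -0.156 for DUSP6 and SPRED1 to 0.585 for DUSP6 and SPRY2. Of the 28 pairs 22 had an r above 0. DUSP5 correlated with DUSP6 at 0.56 and with PHLDA1 at 0.534, and FOSL1 with DUSP6 at 0.06. The median r over all other tested genes was 0.034 with DUSP6 and -0.02 with FOSL1. These points share arrays and scaling, and the values are a description. The genes whose deviations were most like those of DUSP6 were CXCL1 (r = 0.706), CXCL8 (0.697), NFATC1 (0.691), ZW10 (0.678) and GATA6 (0.676), where the 95th percentile over all other tested genes was 0.386. Those most like FOSL1 were RIPOR3-AS1 (0.678), CDC42BPA (0.655), RAMP1 (0.649), GUSBP11 (0.647) and MALAT1 (0.635), against a 95th percentile of 0.318. GUSBP11 is a pseudogene whose probes may also bind its relatives.

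**Figure D5:**
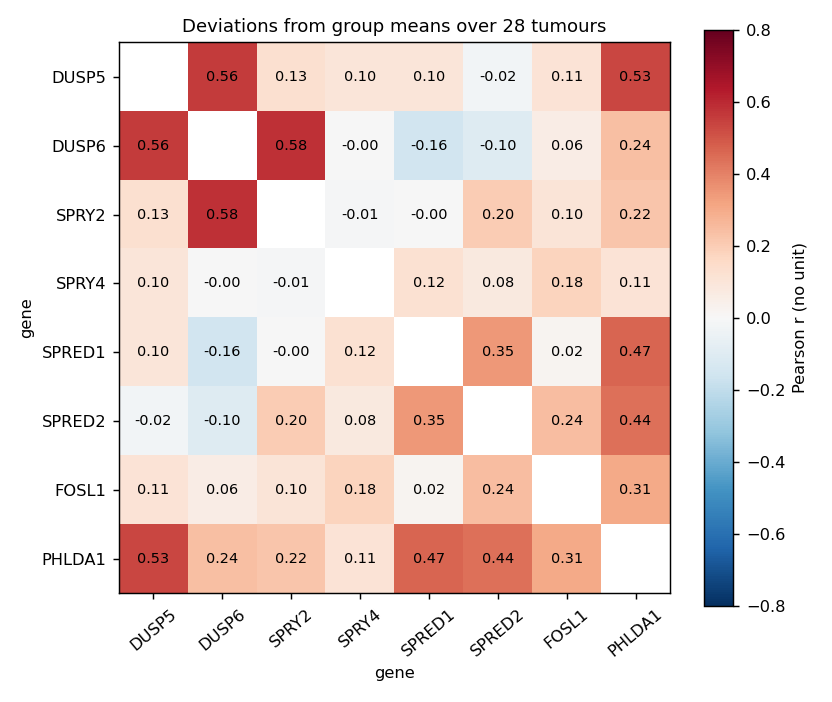
Pearson r, without unit, of deviations from the group means on the log2(signal + 16) scale over the 28 tumours for each pair of the 8 tested genes. Most cells are pale, the highest being DUSP6 with SPRY2 at 0.585 and the lowest DUSP6 with SPRED1 at -0.156.

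Other genes of the pathway were taken from lists written with earlier results of these data known, and their counts stand against 5.97% of all genes that rose with sorafenib in 786-O, 2.22% with sunitinib and 2.93% in A498. Of 9 tested further ERK feedback regulators (median difference 0.22 with sorafenib in 786-O, 0.20 with sunitinib and 0.21 in A498), 2 rose with sorafenib in 786-O: ERRFI1, an inhibitor of EGF receptor kinases (0.85 ± 0.11, adjusted p = 6.89e-06), and SPRED3 (0.82 ± 0.22, adjusted p = 0.0115). DUSP7, a cytoplasmic ERK phosphatase, rose with sunitinib (0.61 ± 0.16, adjusted p = 0.0242). In A498 0 of the 9 were called by limma, with 1 at an unadjusted p under 0.05. SPRY1, the other tested Sprouty gene, had -0.16, -0.18 and 0.21 in the 3 arms. Of 4 tested phosphatases of JNK and p38, DUSP1 rose with sorafenib in 786-O (1.04 ± 0.18, adjusted p = 0.000249), and 0 were called with sunitinib or in A498, with 1 and 0 at an unadjusted p under 0.05.

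Of 8 other AP-1 subunits tested, JUN rose with sorafenib in 786-O (0.65 ± 0.16, adjusted p = 0.00607). With sunitinib and in A498 0 were called by limma, where 2 and 0 had an unadjusted p under 0.05, while FOSL1 was called in each arm; FOSL2, its closest relative, had -0.04, 0.16 and -0.16. Of 10 tested genes known as AP-1 targets, 8 rose with sorafenib in 786-O (5.97% of all genes), among them PLAUR, the urokinase receptor (1.41 ± 0.14, adjusted p = 3.23e-07), CCND1, cyclin D1 (0.99 ± 0.12, adjusted p = 2.53e-06), and CD44, a hyaluronan receptor (0.78 ± 0.10, adjusted p = 4.75e-06). The median of the 10 was 0.88, against -0.05 over all genes. With sunitinib 3 rose (2.22% of all genes), PLAUR (0.80 ± 0.15), CCND1 (0.54 ± 0.12) and the growth factor VEGFA (0.43 ± 0.11). In A498, where 2.93% of all genes rose, CD44 (0.47 ± 0.10) and the cytokine IL6 (1.27 ± 0.29) rose and PLAU, urokinase, fell (-0.70 ± 0.17, adjusted p = 0.0168). The AP-1 target median was 0.30 with sunitinib and 0.27 in A498.

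Of 20 other genes known as ERK output, 12 rose and 1 fell with sorafenib in 786-O (5.97% and 9.18% of all genes). With sunitinib 5 rose and 1 fell (2.22% and 2.84% of all genes), and in A498 6 rose (2.93% of all genes). PLAUR and CCND1 stand in this list too. With sorafenib in 786-O the smallest adjusted p belonged to TMEM158, a RAS-induced membrane protein (3.00 ± 0.21, adjusted p = 2.01e-09), PLAUR, and ETV5, an ETS factor of the PEA3 group (1.44 ± 0.15, adjusted p = 3.75e-07). With sunitinib they were TMEM158 (1.57 ± 0.22), PLAUR and the receptor kinase EPHA2 (0.84 ± 0.16), and in A498 ETV5 (1.38 ± 0.16, adjusted p = 1.05e-05), the chromatin protein HMGA2 (1.39 ± 0.23) and TMEM158 (1.10 ± 0.22). For ETV5 the difference between the lines was -0.06 ± 0.22 (adjusted p = 0.914), whereas the sorafenib effects on DUSP5, PHLDA1 and FOSL1 differed between them. EPHA4, named after its values were seen, was the gene that fell, by 1.57 on the log2 scale with sorafenib and by 0.84 with sunitinib in 786-O. Of 12 tested genes of the RAS-RAF-MEK-ERK chain itself, 0 were called in either 786-O arm by limma, with 3 and 5 at an unadjusted p under 0.05. In A498 MAP2K2 (MEK2) rose by 0.45 ± 0.13 and the adaptor GRB2 fell by 0.37 ± 0.11; the other 6 listed genes of the chain were not analysed here.

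Markers of fibroblasts and pericytes moved beside the sorafenib result in 786-O. Of 12 listed genes 10 passed the filter, LUM and PDGFRB did not, and 6 of the 10 fell with sorafenib, COL1A1, COL1A2, COL3A1, FBLN1, POSTN and RGS5, named after their values were seen. The summed signal of all 12 listed genes ranged from 8240 to 11600 in untreated and from 3180 to 5350 in resistant tumours of that arm. With sunitinib RGS5 fell, and the 12-gene sum ranged from 4530 to 9110 in untreated and from 3810 to 8020 in resistant tumours. In A498 0 of the 10 tested genes were called by limma, with 2 at an unadjusted p under 0.05. The 12-gene sum there ranged from 7530 to 16900 in untreated and from 11200 to 25300 in resistant tumours. The ACTB 3-prime minus 5-prime difference, a sign of RNA quality, ranged over 0.218 to 1.03 in untreated and 0.29 to 0.674 in resistant tumours of the sorafenib arm and lay at or below 0.4 elsewhere. Without the tumour of the highest value in each of those groups, the same number of members, 7 of 8, rose.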

How the data were processed

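RNA of 28 xenograft tumours had been extracted with Trizol and measured on 1-colour human arrays, per the labels' protocols. The deposited values are intensity values, linear probe set signals from 0.0875 to 64034.6 with equal 2% trimmed means (500.06 to 500.07). RMA and MAS5 are both named in the submitters' processing notes, with neither role nor version; the form is that of MAS5 scaling. Of 54675 probe sets, 41091 had 1 gene symbol in the platform annotation, 1801 several and 11721 none, and 62 are controls; 41037 were updated by Entrez ID and 54 by symbol. A gene was represented by its brightest probe set. A model with 1 mean per group over all 28 arrays, without covariates, was fitted with limma 3.58.1 (R 4.3.3) and tested on simulated data. The number of arrays limits precision. Members, lists and rules were chosen with earlier results of these data known. Named genes are the 9 members, up to 3 called genes per list and arm with the smallest adjusted p, and the 5 genes most like FOSL1 and DUSP6 by correlation of deviations. Alternatives were pseudocounts of 1 and 64, no filter or the 75th percentile, other scaling, probe set choice, variance prior and controls, and leaving out arrays. Figures were drawn with matplotlib 3.10.9 (Python 3.11.15).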

Additional observations from a re-analysis of the deposited data

Results flagged for a closer look

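The test of the difference between effects set 9 values apart, all on the log2(signal + 16) scale. Between sorafenib and sunitinib in 786-O the effects differed by 1.33 for DUSP5, 1.72 for DUSP6, 1.60 for PHLDA1, 0.90 for SPRED2 and 1.58 for SPRY2, higher with sorafenib in each. SPRY2 was the gene called in opposite directions by the drugs. Between A498 and 786-O the sorafenib effects differed by -1.42 for DUSP5, -1.09 for FOSL1, -1.19 for PHLDA1 and -0.66 for SPRED2, smaller in A498 in each. No single tumour stood apart by Dixon's test in 54 checks of a gene in a group, where chance gives about 1 in 20.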

How the results depend on the processing

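No paired analysis was possible because replicate numbers were given by accession order and pair no tumours. In 786-O with sorafenib 7 of 8 genes stayed called in every leave-one-out fit, with 1579 to 1931 genes called in all. The corresponding ranges were 0 to 4 and 313 to 659 with sunitinib, 1 to 3 and 467 to 1020 in A498, 3 to 6 and 64 to 171 for sorafenib minus sunitinib, and 2 to 5 and 506 to 746 for A498 minus 786-O. Leaving out a tumour moved SPRY4, A498 minus 786-O, between -0.152 and 0.196, and SPRED2 with sunitinib between -0.168 and 0.005. In A498 no filter left 1 gene called, median centring 1 and the arm's arrays alone 0 (185 genes in all). With sunitinib the arm's arrays alone left 0 (259 in all), exact permutation without adjustment gave 5, and pooled untreated tumours gave 1326 genes in all. For sorafenib minus sunitinib the genes called in all were 73 without filter, 852 with pooled untreated tumours and 51 without the 2 tumours of highest ACTB difference. Without these 2, A498 minus 786-O called 2 of the 8 genes and 458 in all, and 786-O with sorafenib 1233 in all; without probe sets open to cross-hybridisation A498 minus 786-O called 476. SPRY4, A498 minus 786-O, main value 0.01, turned to -0.075 with a pseudocount of 1, -0.113 with quantile normalisation, -0.137 with median centring, -0.382 with pooled untreated tumours and -0.054 without those 2 tumours; its sorafenib minus sunitinib value turned to 0.327 with pooled untreated tumours. SPRED2, A498 minus 786-O, turned to 0.041 with the mean of probe sets. Single probe sets turned SPRED1 (-0.096 with sorafenib in 786-O and 0.355 for A498 minus 786-O), and with sunitinib DUSP6 (0.089) and PHLDA1 (-0.097). Single-arm fits hold fewer arrays, and the fit without filter tests more genes; otherwise the cause was not tested. SPRY4 in 786-O and DUSP4 are limited by dim signal.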
